A study of Mus musculus with 11 samples.

Results

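The annexins are a family of proteins that bind phospholipids in the presence of calcium, and 7 of the 12 mouse annexin genes set out here are described in neurospheres with Klf5 overexpression and in control neurospheres: Anxa2, Anxa3, Anxa4, Anxa5, Anxa6, Anxa7 and Anxa11. These 7 rows, out of 53453 gene rows, were selected on values measured in the same libraries and in the same comparison; no numerical threshold is recorded for the choice, so the differences of these 7 genes between the groups are given as a description and not as a test. All 7 identifiers carried an annexin symbol. Primary neurospheres are free-floating clusters grown from neural stem cells and their progenitors, here from embryonic mouse brain at E15.5, and total RNA was sequenced from 5 embryos with overexpression of the zinc finger transcription factor Klf5 and from 6 control embryos given no treatment. The labels give neither strain nor sex, nor the promoter or vector that drove Klf5.

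Annexins share a core of repeats that carry calcium-binding loops and dock on acidic phospholipids such as phosphatidylserine, whereas the short tail in front of the core differs from member to member and recruits partner proteins. They organise membrane contacts with actin, take part in vesicle traffic, and gather at wounds of the plasma membrane. Anxa2 is known as the partner of the EF-hand protein S100a10, with which it forms a tetramer at the inner face of the plasma membrane, and as a binding platform for plasminogen and its activators at the outer face.

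Klf5 stood at 53.6 to 93.0 TPM in the 5 overexpression libraries and at 0.371 to 1.29 TPM in the 6 control libraries, so every library matched its label; TPM is a unit scaled to length and to library total. Values of the listed rows added up to 730832 to 821967 TPM in the overexpression libraries and to 814208 to 846780 TPM in the controls, with the lowest total in overexpression library 5; sequencing depth is unknown. Rows that resemble ribosomal RNA held 7.55 to 18.3% and 11.6 to 19.2% of these sums. The neural stem cell markers were all present, led by Fabp7, and summed to 3681 to 5647 TPM and 4692 to 7804 TPM. Markers of other cell types that express annexins were low: 10 microglia and macrophage genes summed to 0.809 to 3.04 TPM against 0.528 to 3.14 TPM, 8 endothelial genes to 0.351 to 0.800 TPM against 0.0913 to 1.28 TPM, 10 mural, fibroblast and mesenchymal genes to 2.60 to 8.23 TPM against 1.70 to 8.72 TPM, and 8 epithelial genes to 0 to 0.238 TPM against 0 to 0.398 TPM. Of these, Aif1, Cx3cr1, C1qa, C1qb, Dcn, Lum, Krt19, Krt5, Krt14 and Cldn4 were listed at 0 in all libraries, and none of the 10 marker sums passed the threshold by a two-sided exact permutation test (smallest p = 0.0584, adjusted p = 0.286). The other sums averaged 191 against 231 TPM for astrocyte, 249 against 295 TPM for neuron, 1908 against 2216 TPM for oligodendrocyte lineage, 23.1 against 21.4 TPM for choroid plexus and ependymal, and 0.0434 against 0.246 TPM for erythroid genes. Single markers did pass limma, which called 3.72% of all tested genes. For neural stem cells 2 were higher and 2 lower of 11 tested, and for astrocytes 2 higher and 1 lower of 7. For the oligodendrocyte lineage 1 of 6 was higher, and for choroid plexus and ependyma 1 of 3. The part of cell make-up in the annexin differences was not tested.

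Anxa2 and Anxa6 stood higher with Klf5 overexpression, Anxa3 stood lower, and Anxa5 was near its control level. Anxa6 was the most abundant annexin in both groups. Of the 7 genes, 3 had groups of libraries that did not overlap, all of them higher with overexpression: Anxa2, Anxa6 and Anxa11. Among all 13549 genes that passed a filter on low values, 1.99% were non-overlapping and higher, and 1.31% were non-overlapping and lower. In a limma fit over all tested genes 3 of the 7 were called at an adjusted p under 0.05, Anxa2 and Anxa6 higher and Anxa3 lower, beside 3.72% of all tested genes; as this comparison chose the genes, nothing is read from the count. Anxa3 was not called without overexpression library 2, without overexpression library 4, or without the filter. Anxa4 did not pass the filter, and Anxa11 reached 1 TPM in all 5 overexpression libraries and in 0 of the 6 controls, so it passed through the higher group alone. In bulk RNA, fewer cells of a type and less RNA per cell cannot be told apart.

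**Figure D1:**
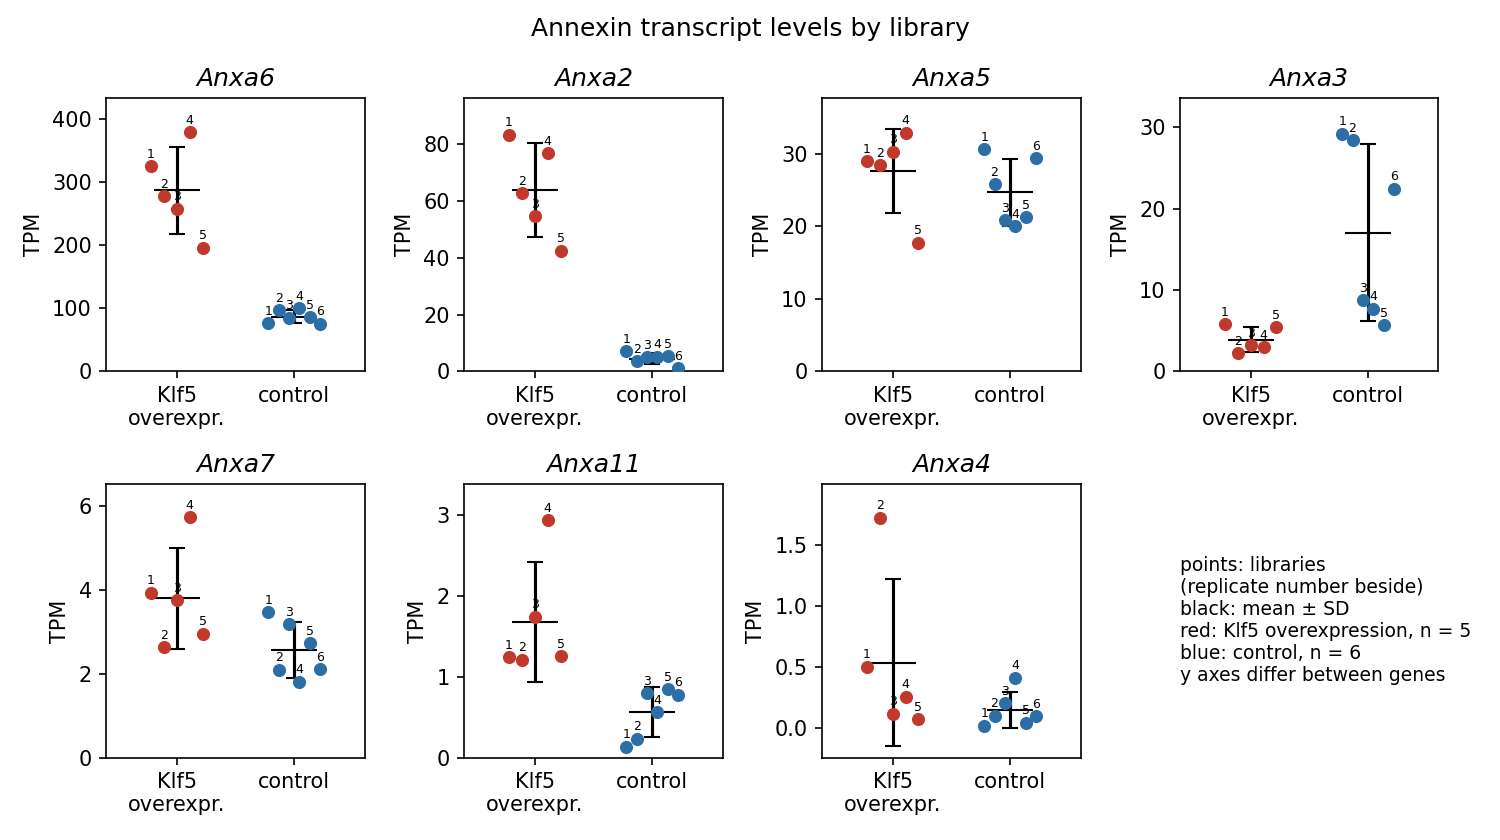
TPM of the 7 annexin genes in each library, with Klf5 overexpression libraries (red, n = 5) left of control libraries (blue, n = 6); points are libraries with their replicate number, the black bar and whiskers are mean ± SD, and the y axis differs from gene to gene. The groups do not overlap for Anxa6, Anxa2 and Anxa11; for Anxa3 the highest overexpression library (5.77 TPM) just passes the lowest control library (5.70 TPM).

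Anxa2 (ENSMUSG00000032231, chromosome 9, 69453620 to 69491795, plus strand, GRCm38, protein-coding) encodes the annexin that pairs with S100a10. It was listed at 83.5, 62.8, 54.6, 76.9 and 42.5 TPM in overexpression libraries 1 to 5, and at 1.06 to 7.21 TPM with a median of 5.03 TPM in the controls. The lowest overexpression value lay several times above the highest control value. Overexpression libraries averaged 64.0 ± 16.5 TPM (SD, n = 5), and controls averaged 4.53 ± 2.06 TPM (SD, n = 6), a ratio of 14.1 that lay between 12.3 and 16.03 when any 1 library was left out. The log2 difference, on the log2(TPM + 1) scale used throughout, was 3.63 ± 0.29 (SE), the fifth largest increase of all tested genes. By mean level Anxa2 stood at place 1763 of all rows with overexpression and at place 10483 in controls. The antisense gene Gm16144, whose exons overlap those of Anxa2, was listed at 0 in every library.

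Control library 6 had 1.06 TPM of Anxa2, below the 3.57 TPM of the next lowest control. Among the overexpression libraries, in TPM as listed, library 5 was lowest for both Klf5 and Anxa2 and library 1 was highest for both. Library 5 also had the lowest listed total. After scaling by median ratios its Anxa2 value was 51.5, against 51.8 in the next lowest overexpression library. Klf5 values after this scaling are not given, and whether Anxa2 followed Klf5 from library to library was not tested.

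The promoter window of Anxa2, as RefSeq gives it on GRCm38.p6, is shown with those of Anxa11, which also stood higher, and of Anxa5, whose groups overlapped, since Kruppel-like factors are known to bind CACCC and GC-rich boxes. Each window is 300 bases around the annotated start, written 5′ to 3′ on the gene's strand: chr9:69453433-69453732 on the plus strand for Anxa2, chr14:25841905-25842204 on the plus strand for Anxa11 and chr3:36475838-36476137 on the minus strand for Anxa5. Capitals mark matches to CACCC or CCGCCC on either strand (GGGTG or GGGCGG when read on the other one), widened by 1 base where the match is CCACCC or GGGTGG.
Anxa2: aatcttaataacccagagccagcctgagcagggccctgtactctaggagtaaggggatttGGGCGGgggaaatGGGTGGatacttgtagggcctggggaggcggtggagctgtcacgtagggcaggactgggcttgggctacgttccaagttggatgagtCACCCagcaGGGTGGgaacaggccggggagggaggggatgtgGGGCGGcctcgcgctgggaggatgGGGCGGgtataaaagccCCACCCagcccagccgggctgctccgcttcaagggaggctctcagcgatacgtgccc
Anxa11: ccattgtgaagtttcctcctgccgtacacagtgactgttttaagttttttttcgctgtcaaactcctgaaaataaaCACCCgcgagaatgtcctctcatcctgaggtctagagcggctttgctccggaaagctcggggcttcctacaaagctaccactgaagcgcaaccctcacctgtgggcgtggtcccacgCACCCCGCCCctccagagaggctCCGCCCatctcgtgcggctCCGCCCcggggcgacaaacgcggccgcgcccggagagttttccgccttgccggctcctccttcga
Anxa5: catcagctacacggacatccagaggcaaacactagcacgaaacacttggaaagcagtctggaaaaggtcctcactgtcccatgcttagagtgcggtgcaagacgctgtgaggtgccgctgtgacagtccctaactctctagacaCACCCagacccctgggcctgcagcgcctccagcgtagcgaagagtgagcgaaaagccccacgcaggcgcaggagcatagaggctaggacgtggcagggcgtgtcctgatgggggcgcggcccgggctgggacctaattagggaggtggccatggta

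The Anxa2 window held 4 matches to CACCC, of which 3 were also CCACCC, and 3 matches to CCGCCC, all of these on the other strand. Of 32851 windows of the same length, 57.5% held CACCC, 31.5% CCACCC and 35.7% CCGCCC; 3.10% held at least 4 CACCC, 2.25% at least 3 CCACCC and 10.7% at least 3 CCGCCC. The Anxa11 window held 2 CACCC, 0 CCACCC and 3 CCGCCC, with 1 base shared between a CACCC and a CCGCCC. The Anxa5 window held 1 CACCC and neither of the others. Anxa7, whose groups overlapped, held up to 3 CACCC and 4 CCGCCC in 1 of its windows, and the Anxa4 windows held up to 2 CACCC. The windows of Anxa2, Anxa11 and Anxa5 were 63.7, 59.7 and 60.3% G and C. No window was available for Anxa6, which also stood higher, or for Anxa3, which stood lower. The matches therefore cannot be set against the direction of the differences across the members. They describe the letters and are no evidence of binding.

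Anxa6 (ENSMUSG00000018340, chromosome 11, 54979108 to 55033445, minus strand) encodes the large annexin whose core repeats are present in duplicate. Its longest annotated coding sequence had 2019 bases, against 957 to 1509 bases in the other members. It was listed at 325, 278, 258, 379 and 196 TPM in overexpression libraries 1 to 5, and at 75.7 to 100.5 TPM with a median of 85.4 TPM in controls. Every overexpression library was above every control library, with library 5 again the lowest of its group. Means were 287 ± 69.2 TPM (SD, n = 5) and 86.7 ± 10.3 TPM (SD, n = 6), a ratio of 3.31 and a log2 difference of 1.69 ± 0.15 (SE). By mean level Anxa6 stood at place 296 of all rows with overexpression and at place 1262 in controls.

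Anxa11 (ENSMUSG00000021866, chromosome 14, 25842156 to 25886804, plus strand) encodes an annexin with a long tail that tethers RNA granules to lysosomes in neurons. It was listed at 1.24, 1.21, 1.75, 2.94 and 1.26 TPM in overexpression libraries 1 to 5, and at 0.133 to 0.851 TPM with a median of 0.669 TPM in controls. The groups did not overlap, but both were near 1 TPM, where the scale understates a change: the log2 difference was 0.77 ± 0.25 (SE) with a pseudocount of 1 and 1.53 with a pseudocount of 0.1. The ratio of means was 3.00, and 2.44 without overexpression library 4. The antisense gene Anxa11os, whose exons overlap, reached at most 0.0676 TPM.

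Anxa7 (ENSMUSG00000021814, chromosome 14, 20455260 to 20480133, minus strand), named synexin for its part in membrane fusion of secretory vesicles, stood at 3.93, 2.63, 3.75, 5.73 and 2.96 TPM in overexpression libraries 1 to 5. Controls had 1.81 to 3.47 TPM with a median of 2.42 TPM. All 5 overexpression libraries were above the control mean of 2.57 TPM, but the groups overlapped. The log2 difference was 0.42 ± 0.22 (SE).

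Anxa5 (ENSMUSG00000027712, chromosome 3, 36448923 to 36475894, minus strand), the annexin used in the laboratory to stain phosphatidylserine on dying cells, was the member with the smallest difference. Overexpression libraries 1 to 5 had 29.0, 28.5, 30.3, 32.9 and 17.8 TPM, and controls 20.1 to 30.6 TPM with a median of 23.6 TPM. In TPM as listed, the library with the highest value and the library with the lowest value both came from the overexpression group. The lowest was library 5, which had the lowest listed total. After scaling by median ratios its Anxa5 value was 21.5, against 24.7 in the next lowest overexpression library. The ratio of means was 1.12, and 1.22 without overexpression library 5. The log2 difference was 0.15 ± 0.17 (SE).

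Anxa3 (ENSMUSG00000029484, chromosome 5, 96793339 to 96845966, plus strand), an annexin found in phagocytes and microglia among other cells, was the member that stood lower with overexpression. Overexpression libraries 1 to 5 had 5.77, 2.23, 3.19, 2.96 and 5.40 TPM. Controls spread widely, with 29.2, 28.4 and 22.5 TPM in libraries 1, 2 and 6 and 8.76, 7.72 and 5.70 TPM in libraries 3, 4 and 5. Overexpression libraries averaged 3.91 ± 1.57 TPM (SD, n = 5), 4.36-fold below the 17.1 ± 10.9 TPM (SD, n = 6) of the controls. All 5 overexpression libraries were below the control mean, and 4 of them were below every control. The log2 difference was -1.68 ± 0.38 (SE), place 16 among the decreases of all tested genes. The microglia and macrophage marker sum was 1.95 TPM with overexpression and 1.79 TPM in controls; its part in the Anxa3 difference was not tested.

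Anxa4 (ENSMUSG00000029994, chromosome 6, 86736840 to 86793584, minus strand), an annexin of epithelia, was barely present. It had 0.502, 1.72, 0.117, 0.256 and 0.0733 TPM in overexpression libraries 1 to 5 and 0.0175 to 0.412 TPM in controls. The ratio of means was 3.68, but 1.64 without overexpression library 2 and 5.83 without control library 4. Its exons overlap Gm44036, which reached at most 0.894 TPM, and a strand setting for the counting is not known, so reads of the pair may not be separable at this level.

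The 5 other annexin genes were low or at 0 and none passed the filter. Anxa1, a partner of S100a11 and an anti-inflammatory annexin, was listed at 0 in all 6 controls and at 0.144, 2.55, 0.723, 1.29 and 0.383 TPM in overexpression libraries 1 to 5; a fold against 0 is not given. Anxa8 was listed at 0.200 and 0.309 TPM in overexpression libraries 1 and 3 and at 0 in all others. Anxa9 had 0 to 0.388 TPM in overexpression libraries and 0.192 to 0.743 TPM in controls. Anxa10 and Anxa13 were listed at 0 in every library.

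The order of levels differed between the groups, as a description. With overexpression it was Anxa6, Anxa2, Anxa5, Anxa3, Anxa7, Anxa11 and Anxa4, and the ranges of neighbouring genes over libraries overlapped from Anxa3 downward. In controls it was Anxa6, Anxa5, Anxa3, Anxa2, Anxa7, Anxa11 and Anxa4. There Anxa6 and Anxa5 did not overlap, nor did Anxa7 and Anxa11, while every other pair of neighbours overlapped. The 7 genes together summed to 389 ± 90.5 TPM (SD, n = 5) in overexpression libraries, and to 136 ± 13.8 TPM (SD, n = 6) in controls. Without Anxa2 and Anxa6 the sum was 37.6 ± 6.46 TPM and 45.0 ± 15.0 TPM.

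As a share of the summed annexin TPM, Anxa2 took 16.4% ± 1.30 (SD, n = 5) with overexpression and 3.35% ± 1.53 (SD, n = 6) in controls. Anxa6 took 73.8% ± 1.19 and 64.0% ± 8.41, Anxa5 7.17% ± 0.913 and 18.1% ± 2.89, and Anxa3 1.08% ± 0.602 and 12.1% ± 6.96. The make-up was more alike among overexpression libraries, where Anxa6 ranged from 72.4 to 75.7%, than among controls, where it ranged from 51.9 to 73.8%. Anxa2 stood at 20.3 to 25.6 TPM for every 100 TPM of Anxa6 in overexpression libraries and at 1.40 to 9.46 in controls.

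**Figure D2:**
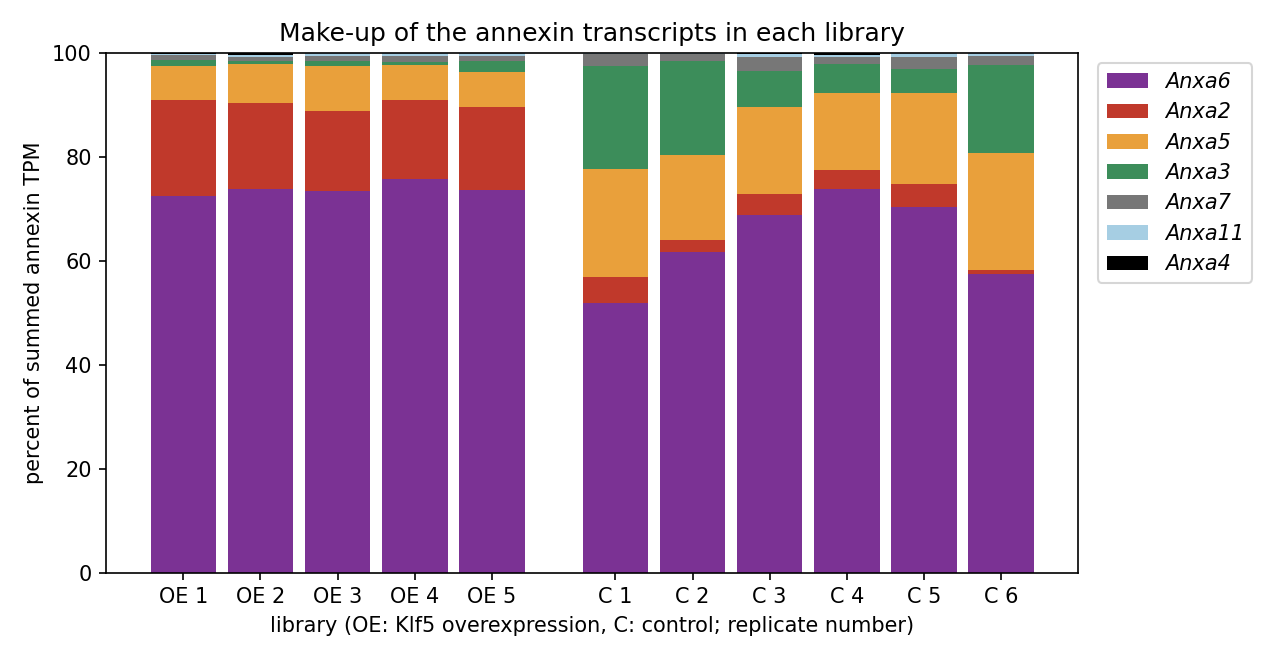
Percent of the summed TPM of the 7 annexin genes held by each gene, in overexpression libraries 1 to 5 (OE, left) and control libraries 1 to 6 (C, right). Anxa2 (red) holds 15.4 to 18.6% in the overexpression libraries and 0.806 to 4.91% in the controls, and Anxa3 (green) is widest in control libraries 1, 2 and 6.

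Partners of the annexins are described next, in a list of 8 EF-hand and scaffold genes. This list and those below were chosen with earlier results of these data known, so their limma calls are no independent evidence. Over all tested genes, limma called 3.72%. Of 6 tested genes, 2 rose, S100a10 and S100a4, and 0 fell; the median log2 difference was 0.14, beside -0.04 over all tested genes. S100a10, the obligate light chain of the Anxa2 tetramer, was listed at 543, 308, 378, 448 and 334 TPM in overexpression libraries 1 to 5 and at 86.4 to 126 TPM in controls. Its log2 difference was 1.96 ± 0.15 (SE), a ratio of 3.98, with a limma adjusted p of 7.03e-07 and all 5 overexpression libraries above every control. S100a4, an EF-hand protein that also binds Anxa2, averaged 27.7 ± 5.30 TPM (SD) in the 5 overexpression libraries, against 6.34 ± 2.56 TPM (SD) in the 6 controls. Its log2 difference was 2.02 ± 0.22 (SE; limma adjusted p = 3.88e-05).

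Anxa2 and S100a10 did not differ by the same factor between the groups. For every 100 TPM of S100a10 there were 15.4, 20.4, 14.4, 17.2 and 12.7 TPM of Anxa2 in overexpression libraries 1 to 5, and 1.13 to 5.71 TPM in controls. In both groups the S100a10 transcript was thus the more abundant of the pair. S100a11, the EF-hand partner of Anxa1, had 49.1 against 38.4 TPM (limma adjusted p = 0.279). Pdcd6, which binds the tails of Anxa7 and Anxa11, had 45.1 against 45.7 TPM, and Sri (sorcin, a partner of Anxa7) had 27.3 against 33.8 TPM, with limma adjusted p of 0.975 and 0.375. S100a6 was listed at 0, 0.475, 0, 0.630 and 3.90 TPM in overexpression libraries 1 to 5, against 0.234 to 1.595 TPM in controls; its ratio of means was 0.934, and 0.257 without overexpression library 5.

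The scaffold genes Ahnak and Ahnak2 did not pass the filter. Ahnak, a giant scaffold that binds the Anxa2 tetramer, was listed at 0.148 to 1.18 TPM in overexpression libraries and at 0 to 0.0806 TPM in controls, and Ahnak2 at 0.773 to 2.82 TPM and 0 to 0.244 TPM. For each gene every overexpression library was above every control, and both were chosen after their values were seen.

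**Figure D3:**
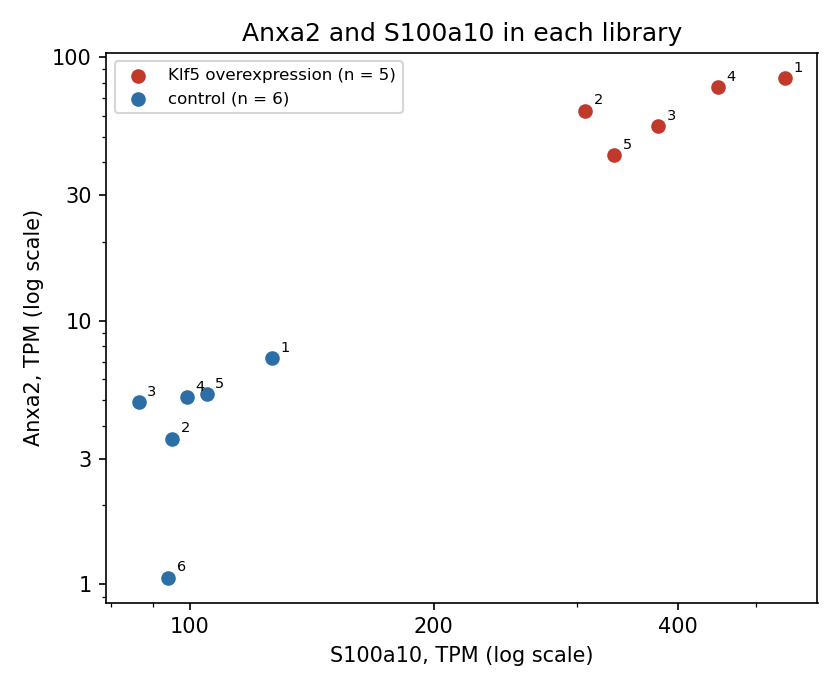
Anxa2 TPM (y axis, log scale) against S100a10 TPM (x axis, log scale) in each library, labelled by replicate number. The 5 overexpression libraries (red) sit at 308 to 543 TPM of S100a10 and 42.5 to 83.5 TPM of Anxa2, and the 6 control libraries (blue) at 86.4 to 126 TPM and 1.06 to 7.21 TPM.

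The plasminogen system, which the Anxa2 tetramer is known to gather at the cell surface, was represented by 5 tested genes of 11. Of these 1 fell and 0 rose, with a median log2 difference of -0.29. Plat, the tissue plasminogen activator, fell to 76.7, 53.7, 55.1, 59.2 and 35.8 TPM in overexpression libraries 1 to 5, against 77.3 to 122 TPM in controls. The groups did not overlap, though the highest overexpression library lay close to the lowest control. The log2 difference was -0.78 ± 0.17 (SE; limma adjusted p = 0.0127), and the adjusted p was 0.0650 without a filter on low values. Lrp1, an endocytic receptor that clears plasminogen activators, averaged 41.5 ± 6.89 TPM (SD) with overexpression, against 81.6 ± 39.2 TPM (SD) in controls, and did not pass (limma adjusted p = 0.171). The inhibitor Serpine2 had 529 against 590 TPM and the plasminogen receptor Plgrkt 23.3 against 28.1 TPM, with limma adjusted p of 0.809 and 0.557. Plaur, the urokinase receptor, did not pass the filter and was chosen after its values were seen; it stood at 0.841 to 3.21 TPM with overexpression and 0 to 0.380 TPM in controls. Without the filter limma called Plaur higher and Plat no longer, so the list then had 1 higher and 0 lower genes. After rescaling without ribosomal RNA-like and mitochondrial rows, or over nuclear protein-coding rows, the list had 1 higher (Plaur) and 1 lower (Plat). There Plaur passed the filter through the overexpression libraries alone, so nothing is read from its call.

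Genes of plasma membrane repair, a process in which annexins cap the wound edge, showed 0 called genes among 17 tested of 22 in limma, with 4 at an unadjusted p under 0.05 and a median log2 difference of 0.11. Cavin1, a coat protein of caveolae, averaged 15.3 ± 6.22 TPM (SD) with overexpression, against 6.73 ± 3.82 TPM (SD) in controls. The limma adjusted p was 0.0527, and over 21 other fits it lay between 0.00793 (without control library 1) and 0.214. Smpd1, the acid sphingomyelinase, had 18.7 against 25.9 TPM (limma adjusted p = 0.0916); over 21 other fits the adjusted p lay between 0.0151 and 0.217, and it was called lower in 5 of them. The calpain gene Capn2 had 58.2 against 51.8 TPM and the membrane scission gene Chmp4b 176 against 177 TPM, with limma adjusted p of 0.835 and 0.983.

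Phosphatidylserine is the lipid that annexins recognise best, and enzymes that move it between the leaflets of the membrane had 1 higher and 0 lower genes among 12 tested of 14, with a median log2 difference of 0.14. Plscr1, a phospholipid scramblase, rose to 7.16 ± 1.38 TPM (SD) in the overexpression libraries, against 3.76 ± 0.794 TPM (SD) in controls (limma adjusted p = 0.0284). Leaving out 1 library at a time gave adjusted p between 0.0138 and 0.0946, above the threshold in 8 of 11 limma fits. Ano6, a calcium-activated scramblase, had 55.5 against 41.1 TPM (limma adjusted p = 0.157), and the flippase subunit Tmem30a had 75.8 against 73.5 TPM.

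Among the genes for recognition and engulfment of exposed phosphatidylserine, 1 rose and 0 fell of 9 tested of 12, with a median log2 difference of -0.23. Gas6, a bridging ligand of the TAM receptors, rose to 81.8, 93.8, 74.2, 66.6 and 58.9 TPM in overexpression libraries 1 to 5, against 31.4 to 47.6 TPM in controls. Its log2 difference was 0.87 ± 0.15 (SE; limma adjusted p = 0.00188), and the groups did not overlap. The integrin subunit Itgb5 averaged 44.6 ± 11.9 TPM (SD) with overexpression, against 62.5 ± 4.42 TPM (SD) in controls. The limma adjusted p was 0.0629, and 0.00285 without overexpression library 1; it passed in 6 of 21 other fits. Mfge8, another bridging protein, had 117 against 135 TPM (limma adjusted p = 0.665), and the TAM receptor gene Tyro3 59.5 against 44.7 TPM (limma adjusted p = 0.399).

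The copines, a separate family of calcium-dependent phospholipid-binding proteins built on C2 domains, had 1 higher and 0 lower genes among 5 tested of 9, with a median log2 difference of 0.25. Cpne7 rose to 4.75 ± 2.94 TPM (SD) with overexpression, against 0.882 ± 0.319 TPM (SD) in controls. Its log2 difference was 1.51 ± 0.27 (SE; limma adjusted p = 0.00305). It reached 1 TPM in 5 of 5 overexpression libraries and in 1 of 6 controls, so it passed the filter through the group where it is high. Cpne2 had 14.2 against 11.9 TPM (limma adjusted p = 0.652).

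**Figure D4:**
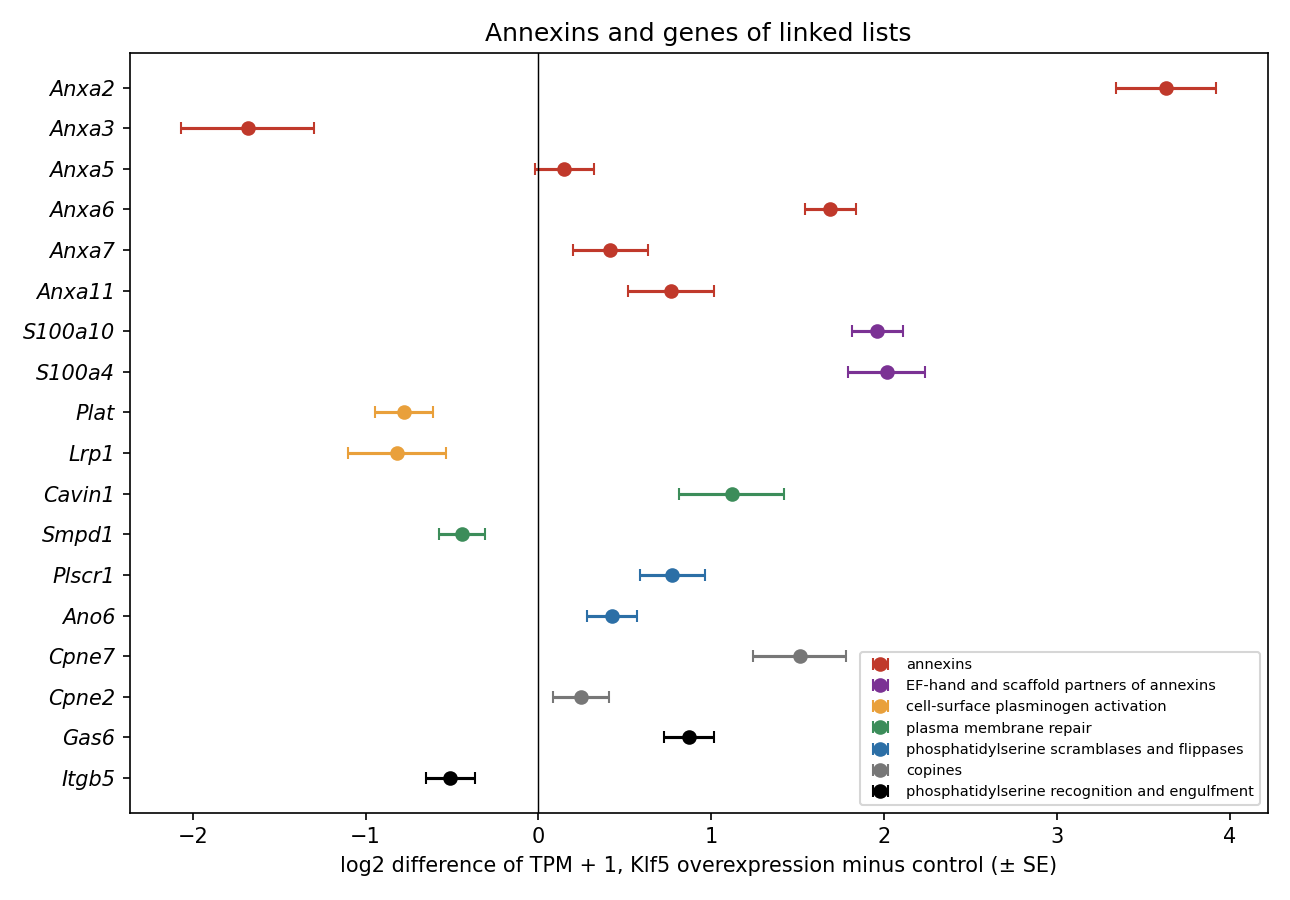
Log2 difference of TPM + 1, Klf5 overexpression minus control, with its limma SE, for the 6 tested annexins (red, a description) and for the leading genes of the linked lists in other colours. Anxa2 lies furthest to the right at 3.63, S100a10, S100a4 and Anxa6 lie between 1.69 and 2.02, and Anxa3 lies furthest to the left at -1.68.

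The genes next to the annexins on their chromosomes were looked up as well. Of the 14 nearest tested genes on either side of the 7 members, 1 was called by limma, with 2 at an unadjusted p under 0.05. Over all tested genes 3.72% were called, so the count is not read as a result about these neighbours. The nearest tested genes to Anxa2, Ice2 at 20498 bases and Bnip2 at 497671 bases, had log2 differences of -0.15 ± 0.24 and 0.11 ± 0.14 (SE). Those of Anxa6, Tnip1 at 16191 bases and Ccdc69 at 16286 bases, had 0.27 ± 0.20 and 0.12 ± 0.29 (SE). Those of Anxa3, Fras1 at 8611 bases and Bmp2k at 151723 bases, had -0.13 ± 0.24 and -0.22 ± 0.23 (SE). The called gene was Gm11549, 39163 bases from Anxa5, which fell to 1.88 TPM with overexpression, against 7.56 TPM in controls (limma adjusted p = 0.00178).

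The coding sequences of the members are related but far from identical. Over aligned bases, pairs shared from 58.7% (Anxa2 and Anxa5) to 69.9% (Anxa3 and Anxa6) of their letters. Gaps were not counted, and the highest pairs all held Anxa6, the longest coding sequence. The order of pairs is therefore not read as closeness of relation.

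Genes whose values ran closest to a member's over the 11 libraries were found by the mean absolute gap between log2 values, each centred on its own control mean, among 9275 genes of at least 5 TPM in 1 group. For Anxa2 these were Ptpn6, Serpinb1a and Hspa12b, with gaps of 0.39, 0.40 and 0.43. For Anxa6 they were Rarg, Hr and Esyt1, with gaps of 0.16, 0.19 and 0.20, and for Anxa11 Btg1, Uap1l1 and Spock2, with gaps of 0.16, 0.16 and 0.18. A small gap says only that a gene had a similar difference between the groups and a similar spread on the log2(TPM + 1) scale. Ratios of means can differ, as this scale understates a change at low levels. Serpinb1a averaged 12.4 TPM with overexpression and 0.0747 TPM in controls, and Rarg 5.64 and 1.06 TPM.

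**Figure D5:**
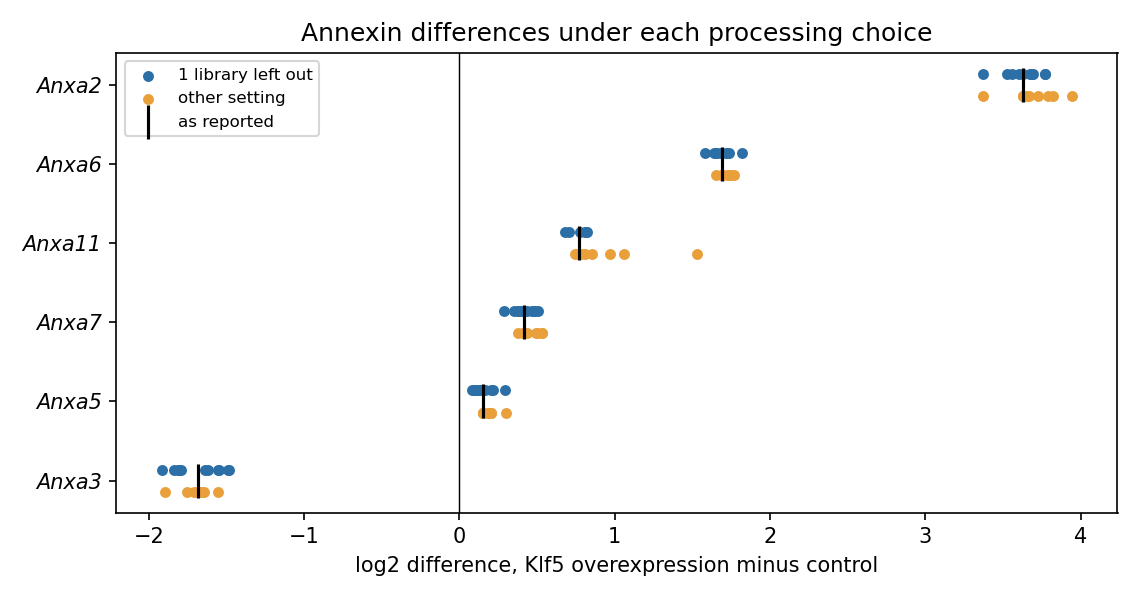
Log2 difference of each tested annexin, Klf5 overexpression minus control, as reported (black line), with 1 library left out (blue) and under other settings (orange). Anxa11 has blue points for left-out control libraries only, as it was not tested without an overexpression library. Values of Anxa2 lie between 3.37 and 3.94, those of Anxa6 between 1.58 and 1.82 and those of Anxa3 between -1.92 and -1.48; the outlying Anxa11 value of 1.53 comes from the pseudocount of 0.1.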

How the data were processed

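RNA-seq values of primary neurospheres (5 overexpression and 6 control libraries) were taken from 1 table of TPM made by the authors, with 1 column per library. The submitters' processing notes name HISAT2, StringTie, HTSeq and DESeq2 and the build GRCm38.p5 without roles; for the annotation release, the strand setting and the depth the sources used here give nothing. Per the labels' protocols, a directional NEBNext kit and a KAPA kit were used, with no library assigned to either. Rows reaching 1 TPM in 5 or more libraries were tested on log2(TPM + 1) with limma 3.58.1 (R 4.3.3, variance trend, Benjamini-Hochberg adjustment over all tested genes, threshold 0.05). Marker sums were tested by exact two-sided permutation (462 arrangements, smallest p 0.00216). The test was checked on simulated data. Symbols were matched for 53255 rows; coordinates are from GENCODE M21 on GRCm38.

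The members and the 7 linked gene lists were chosen with earlier results of these data known. Named genes were the members, the other annexins, Klf5, the 2 genes of each list with the smallest p plus further called genes up to 6 a list, and 3 closest genes for each member whose groups did not overlap; others are marked as chosen after their values were seen or serve as examples of a list, picked for their role. Each library was taken as 1 embryo. TPM keeps no depth, so no counting interval is given. Alternatives were other pseudocounts, filters, scalings, variance models, a replicate block and leaving out each library.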

Additional observations from a re-analysis of the deposited data

Results flagged for a closer look

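Single libraries stood far from the rest of their group in 6 of 65 groups of values checked; chance flags about 1 in 20. Anxa4 was at 1.72 TPM in overexpression library 2, against 0.0733 to 0.502 TPM in the other overexpression libraries. Cpne7 was at 9.96 TPM in overexpression library 1, against 3.03 to 4.07 TPM in the others, and its ratio of means of 5.38 was 3.90 without that library. Itgb5 was at 65.4 TPM in overexpression library 1, against 34.9 to 42.0 TPM. Cavin1 was at 13.9 TPM in control library 1, against 3.32 to 6.92 TPM in the other controls. The choroid plexus and ependymal marker sum was 27.1 TPM in control library 3, against 18.8 to 21.3 TPM, and the erythroid marker sum was 0.833 TPM in control library 2, against 0 to 0.259 TPM.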

How the results depend on the processing

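The log2 differences of Anxa2, Anxa6, Anxa3, Anxa5 and Anxa7 moved by less than their spread between libraries in all fits run, and those of S100a10, S100a4 and Gas6 kept their direction and their call. Anxa7, Anxa11 and Cpne7 were not tested with a filter of 5 TPM. In the 20 other fits Cpne7 stayed called. Anxa11 did not pass the filter either when any 1 overexpression library was left out. In the 15 other fits that tested Anxa11 it was called in 2, without a variance trend and after rescaling over nuclear protein-coding rows. Anxa11 moved to 1.53 with a pseudocount of 0.1. The number of non-overlapping members was 3 to 4, the fourth being Anxa3, which was apart without overexpression library 1 or without control library 5. The number of members called was 2 to 4 over the 21 other fits, beside 349 to 765 of all tested genes. As this comparison chose the members, nothing is read from their count. The count of all changed genes was 504 of 13549 tested. It was 349 of 28101 without a filter and 741 of 13549 with median-ratio scaling. After rescaling over nuclear protein-coding rows (an alternative chosen after seeing the data) it was 765 of 12046. The lower genes numbered 194, with 95 without a filter, 305 with median-ratio scaling, 311 with quantile normalization and 322 after rescaling over nuclear protein-coding rows. With 1 library left out, all changed genes numbered 353 to 492, the lower genes 117 to 212 and the higher genes 206 to 313. The lower count was 117 without overexpression library 2, 129 without overexpression library 5, 125 without control library 3 and 129 without control library 6, and the higher count was 206 without overexpression library 4. The cause was not tested.

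Same-numbered libraries did not all deviate together (r across genes -0.0398 to 0.304 over 5 pairs, beside -0.21 to 0.136 for differently numbered libraries). The highest r was that of the libraries numbered 1. Not every library correlated best with its own number, so the numbers are not read as pairs. A fit with the replicate block called 426 genes, against 406 for the same libraries without it, with 1 membrane repair gene (Cavin1 higher) and 0 scramblases and flippases. Annexin partners numbered 4 called after rescaling without ribosomal RNA-like and mitochondrial rows and 4 over nuclear protein-coding rows, where S100a11 and Ahnak2 were added. Plasminogen genes numbered 2 under both of these (Plaur higher, Plat lower) and 1 without a filter (Plaur higher, not Plat). Under both rescalings Ahnak2 and Plaur passed the filter through the overexpression libraries alone, the group where they are high. Nothing is read from their calls there. Membrane repair genes numbered 1 with a filter of 5 TPM (Cavin1 higher), 1 with median-ratio scaling, quantile normalization and both rescalings (Smpd1 lower), and 2 with array weights (both). Scramblases and flippases numbered 0 without a filter and with a filter of 5 TPM, and copines 0 with a filter of 5 TPM, where fewer genes were tested. Engulfment genes numbered 2 with median-ratio scaling, array weights and rescaling without ribosomal RNA-like rows, and 3 with quantile normalization and over nuclear protein-coding rows. With each library left out, these counts ranged from 0 to 1 for scramblases and flippases and for membrane repair, and from 1 to 2 for plasminogen and for engulfment genes. Depth is unknown, so for genes under 1 TPM, such as Anxa4, no counting error can be given.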

Other observations

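Anxa3 varied widely among control libraries (SD 10.9 TPM at a mean of 17.1 TPM). The genes whose centred values ran closest to it over the 11 libraries, chosen after its values were seen, were Apln (apelin, a secreted peptide of the vasculature), with 1.34 TPM with overexpression and 7.67 TPM in controls, Gbp7 with 1.93 and 7.90 TPM, and Fbln7 with 1.65 and 5.65 TPM. Their mean absolute gaps to Anxa3 were 0.30, 0.42 and 0.45 on the log2 scale. Relative to Anxa5, Anxa3 stood at 7.84 to 30.4 TPM for every 100 TPM of Anxa5 in overexpression libraries and at 26.8 to 110.02 in controls.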
